A study of Mus musculus with 2 samples.

Results

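Myocardin (Myocd), serum response factor (Srf) and the Kruppel-like factors Klf2, Klf4 and Klf5 were described in aortic cells of Marfan syndrome mice. They were chosen by name, as the regulators most often linked to switching of smooth muscle cells (SMCs) between a contractile and a non-contractile state, and are 5 of the 18920 genes in the deposited tables. All 5 had a row in both libraries. In GRCm38.p6 they are protein-coding genes: Klf4 lies at 4:55527137-55532475, Klf2 at 8:72319062-72321654, Myocd at 11:65173608-65269989, Klf5 at 14:99298691-99313412 and Srf at 17:46546838-46558267.

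SRF is a transcription factor that binds CArG boxes in the regulatory regions of contractile and of immediate early genes, and myocardin is a coactivator without DNA binding of its own that joins SRF at the contractile genes in smooth and cardiac muscle. KLF4 is known to repress myocardin and SRF-dependent contractile genes in SMCs that lose the contractile state, and KLF5 is linked to SMC growth and remodelling. KLF2 is best known as a flow-responsive factor of endothelium that is induced through the ERK5 kinase and MEF2 factors. Klf2 and Klf4 are also induced quickly by stress in many cell types, together with immediate early genes such as Fos.

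The promoter stretches that hold a CArG box or a MEF2 box are shown because these are the sites through which SRF and MEF2 factors act. They were read from the RefSeq promoter table of GRCm38.p6, which spans 300 bases around a gene start and held Srf, Klf2 and Klf4, 3 of the 5 genes. The Srf stretch lies at chr17:46556203-46556262 on the minus strand, 100 to 41 bases before the start in that table. It falls inside the Srf span given above, so the start in that table is not the outer end of that span, 17:46558267. The Klf2 stretch lies at chr8:72318922-72318971 on the plus strand, 140 to 91 bases before the start. Both are written 5′ to 3′ on the gene's strand, with CArG boxes in capitals for Srf and the MEF2 box in capitals for Klf2.
Srf: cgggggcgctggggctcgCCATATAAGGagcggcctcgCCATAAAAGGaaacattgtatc
Klf2: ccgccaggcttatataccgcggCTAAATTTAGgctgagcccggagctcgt
Srf thus had 2 matches to a CArG box, starting at positions -82 and -62, and Klf2 had 1 match to a MEF2 box, at -118. Searched the same way on both strands, a CArG box was found in 1.63% and a MEF2 box in 3.19% of 32851 promoters. The letters CACCC, a core that Kruppel-like factors bind, were present once in the Klf2 window and once in the Srf window, and in 57.5% of all promoters. No match to any of these motifs was found in the Klf4 window, which says nothing of sites outside it.

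The values came from 2 single-cell RNA libraries of aortic root and ascending aorta of Fbn1C1041G/+ mice, which carry 1 mutant copy of the fibrillin-1 gene and model Marfan syndrome. One library came from mice given GLPG0187, an integrin alpha-v inhibitor, each day from 6 to 16 weeks of age, and the other from mice of the same genotype given vehicle over the same weeks. Both were collected at 16 weeks as pools of male and female aortas, and neither wild-type aortas nor separate animals are among the samples. Since each group is 1 library, differences between them have no test, and the treatment cannot be told apart from the mice in a pool or from how each library was made.

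After removal of called doublets, 4349 GLPG0187 and 2945 vehicle cells were used, with medians of 3773 and 3788 genes detected per cell. The deposited values are whole numbers corrected for depth, with medians of 14942 and 14806 per cell, so the raw depth of a cell is unknown. Means below are means of these values per cell, and shares are the percentages of cells with a value above 0, with exact Clopper-Pearson 95% intervals that cover counting error only. The 5 genes were left out of clustering. SMC-like cells (1691 and 875) fell into 2 clusters, fibroblast-like cells (1949 and 1561) into 3, and macrophage-like, chondrocyte-like and endothelial-like cells gave the other large classes. The 7 SMC markers, among them Myh11 and Acta2, were used to name the class, so their level in it is no separate check. They summed to means of 643 and 537 in SMC-like cells against 24.1 and 18.6 in fibroblast-like cells. The B cell markers that could be read were at or near 0 in SMC-like cells. Pericyte markers summed to 6.35 and 6.61 there, against 6.98 and 6.71 in fibroblast-like cells. Cardiomyocyte markers summed to 1.25 and 1.68 in SMC-like cells. The libraries shared 5 cell barcodes.

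Myocd set SMC-like cells apart from every other large class. Its share was 83.6% (81.7 to 85.3) of GLPG0187 and 73.0% (70.0 to 75.9) of vehicle SMC-like cells, with means of 2.62 and 2.04. In the other 4 classes the share lay between 1.67% (macrophage-like, vehicle) and 4.81% (endothelial-like, vehicle), with overlapping intervals. Among the fibroblast-like clusters it was 10.6% and 7.79% in cluster 4, 5.26% and 3.81% in cluster 2, and 1.77% and 1.96% in cluster 1. Scaled to the class totals, Myocd was 37.6-fold higher in SMC-like than in all other cells of the GLPG0187 library and 44.0-fold higher in the vehicle library. Myh11, which encodes the myosin heavy chain of smooth muscle, was 39.2-fold and 52.6-fold higher. Macrophages are not known to use Myocd and had it above 0 in 3.81% (2.05 to 6.43) of GLPG0187 and 1.67% (0.345 to 4.79) of vehicle cells. Their medians were 3179 and 3056 genes detected, against 4021 and 4126 in SMC-like cells. Whether the low shares outside SMC-like cells are background was not tested. At least a 1.5-fold higher value in SMC-like cells was seen for 17% of 12429 genes measured among GLPG0187 cells and 15.3% of 11833 among vehicle cells, where a measured gene is one whose values summed to at least 100 over both sets of cells compared.

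Srf had the same order with a much smaller gap. It was above 0 in 45.9% (43.6 to 48.4) and 45.0% (41.7 to 48.4) of SMC-like cells, with means of 0.603 and 0.561. The remaining classes lay between 13.1% and 21.6%, and within each library neighbours in that order overlapped. Srf was 2.72-fold and 2.13-fold higher in SMC-like cells than in all other cells. Myocd was thus far higher in SMC-like cells than in the other classes of these libraries, while Srf, its DNA-binding partner, differed much less between classes.

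The Kruppel-like factors ran the other way. At least 1.5-fold lower values in SMC-like cells were found for 26.6% of genes among GLPG0187 cells and 22.9% among vehicle cells. Klf2, Klf4 and Klf5 were among them in both libraries. Klf2 was highest in endothelial-like cells, where it was above 0 in 160 of 160 GLPG0187 cells and in 97.1% (91.8 to 99.4) of vehicle cells, with means of 19.96 and 24.5. Fibroblast-like cells had means of 5.44 and 5.72 and chondrocyte-like cells 6.49 and 5.98. SMC-like cells, at 1.95 and 3.58, and macrophage-like cells, at 1.57 and 2.31, were the lowest of the 5 classes.

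Klf4 was detected most often in endothelial-like cells, 96.9% and 95.2%, but its mean was higher in the fibroblast-like cells of the GLPG0187 library, 12.6 against 10.6. In the vehicle library the order of these means was turned, 8.26 in fibroblast-like and 12.5 in endothelial-like cells. Among fibroblast-like cells, cluster 4, led by Il6, Adamts4 and Ptgs2, had the highest Klf4 means, 26.3 and 20.6, against 9.80 and 5.61 in cluster 1 and 9.06 and 6.39 in cluster 2. SMC-like cells were last in both libraries, with 43.8% (41.4 to 46.2) and 48.7% (45.3 to 52.1) of cells and means of 1.58 and 1.92. Set against all other cells, Klf4 in SMC-like cells was 7.21-fold lower among GLPG0187 cells and 4.26-fold lower among vehicle cells, and Klf2 was 3.13-fold and 1.86-fold lower.

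Klf5 was rare throughout. It was above 0 in 6.67% (5.60 to 7.87) and 6.41% (5.24 to 7.74) of fibroblast-like cells, and cluster 4 again had the largest share, 12.3% (9.05 to 16.1) and 10.2% (6.74 to 14.8). In SMC-like cells its share was 2.60% (1.90 to 3.48) and 3.20% (2.14 to 4.59), with means of 0.0319 and 0.0377. It was seen in 0 of 104 endothelial-like and 0 of 180 macrophage-like vehicle cells, which allows shares of up to 2.88% and 1.67%, taken as 3 cells of the total. This limits the share of cells with a value above 0, not of cells that express the gene. Against all other cells, Klf5 in SMC-like cells was 2.31-fold lower among GLPG0187 cells and 1.75-fold lower among vehicle cells. Within SMC-like cells it stayed under the minimum sum, so no ratio between the libraries or between Myh11 bins is read from it.

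**Figure D1:**
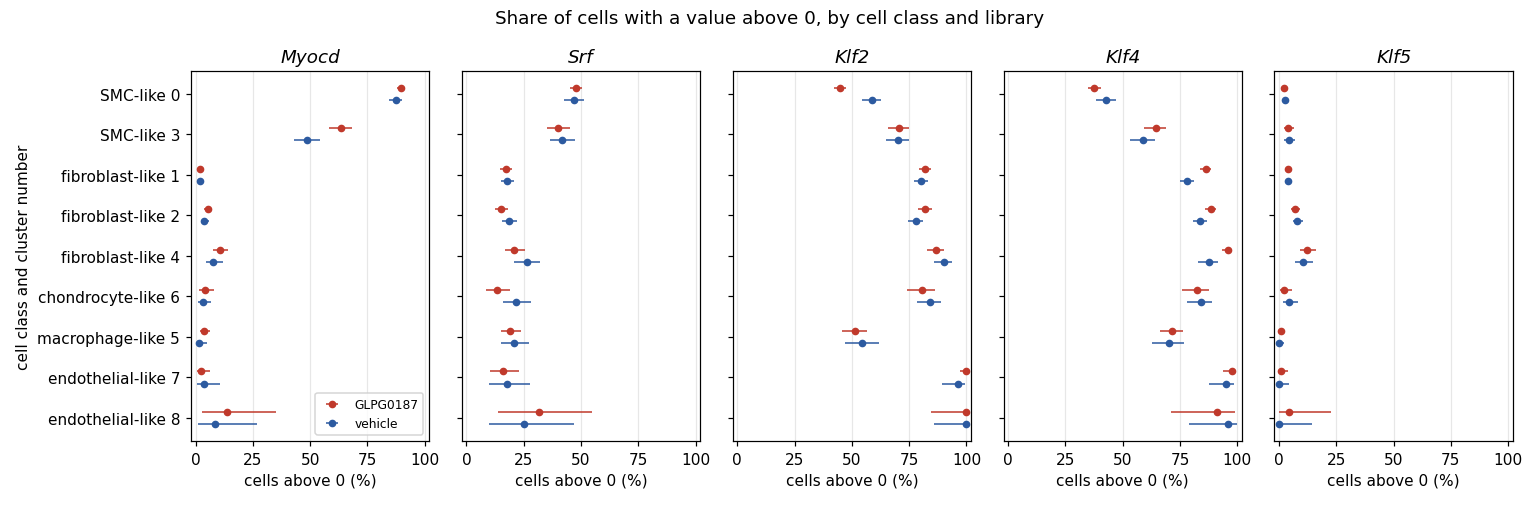
Share of cells with a value above 0 (x axis, percent) for each of the 5 factors, by cell class and cluster number (y axis) in the GLPG0187 library (red) and the vehicle library (blue), with exact 95% intervals as bars. Myocd is high in the SMC-like clusters only, at 89.7% and 87.6% in cluster 0, while Klf2 and Klf4 are lower there than in fibroblast-like and endothelial-like clusters.

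The genes whose class profiles were most like those of the 5 factors were found by Pearson correlation of log2(mean + 0.05) over 10 profiles, 5 classes in each of 2 libraries, among 9794 genes. Both libraries and all classes share their preparation, so these values describe likeness only. Nearest to Myocd were Ldb3, Mylk4 and Myoz2 (0.99 each), which encode a Z-disc protein, a myosin light chain kinase and a calcineurin-binding Z-disc protein of muscle. Nearest to Srf were the heat shock gene Hspa1a (0.97), Lancl3 (0.96) and Ppp1r12a (0.95), a subunit of myosin phosphatase. Nearest to Klf2 were Tgfa (0.99), Cracr2b (0.98) and Bvht (0.98), and nearest to Klf4 were Midn (0.98), Tcf4 (0.97) and Slc25a30 (0.96). Klf5 was closest to Twist2, Hdac4 and Aff3 (0.96 each).

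Within SMC-like cells, Myocd went with Myh11 and Klf2 and Klf4 went against it, in both libraries. Cells of each library were ranked by Myh11 per 10000 and cut into 4 equal bins. Myocd was above 0 in 63.4% (58.6 to 68.0) of the lowest bin and 94.3% (91.7 to 96.3) of the highest among GLPG0187 cells, and in 34.2% (28.0 to 40.9) and 93.6% (89.5 to 96.5) among vehicle cells. Its mean was 1.53 in the lowest and 3.46 in the highest bin of GLPG0187 cells, and 0.667 and 3.23 in vehicle cells. Bins were cut within each library, and Myh11 per 10000 was 11.3 in the lowest and 58.4 in the highest bin of GLPG0187 cells against 3.73 and 51.8 in vehicle cells, so bins of the same rank do not hold the same level of Myh11. On the log2 scale the ratio of the highest over the lowest bin was 1.12 and 2.21, in a background where 11.6% and 13.1% of genes were at least 1.5-fold higher. Ranked by Acta2, Tagln and Cnn1 in place of Myh11, the ratio was 0.32 in the GLPG0187 library, below 1.5-fold, and 1.62 in the vehicle library.

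Srf moved less along Myh11 than Myocd did. Its mean was 0.475 in the lowest and 0.695 in the highest bin of GLPG0187 cells and 0.479 and 0.630 in vehicle cells, log2 ratios of 0.49 and 0.33 that do not reach 1.5-fold. Its share rose from 38.5% (33.9 to 43.4) to 52.0% (47.1 to 56.9) in GLPG0187 cells. In vehicle cells it was 36.5% (30.1 to 43.3) in the lowest and 52.1% (45.2 to 58.8) in the highest bin, with 49.8% and 41.7% in the bins between. Across cells, the Spearman correlation with Myh11 was 0.07 and 0.02 for Srf, against 0.34 and 0.50 for Myocd. These correlations are over 1691 and 875 cells that share a library and a depth correction. Myocd also correlated with genes detected per cell, at 0.27 and 0.32. Without modulated cells its correlation was 0.26 and 0.34 with Myh11, and 0.26 and 0.32 with genes detected. In cluster 0 these were 0.21 and 0.24, and 0.20 and 0.22.

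Klf4 ran opposite to Myocd. Its mean was 2.79 in the lowest and 0.799 in the highest Myh11 bin of GLPG0187 cells, and 3.88 and 0.653 in vehicle cells, log2 ratios of -1.86 and -2.63. Klf2 was at 3.43 and 1.05 in GLPG0187 cells and 5.44 and 2.03 in vehicle cells, log2 ratios of -1.76 and -1.49. At least 1.5-fold lower values in the highest bin were seen for 6.34% of 8732 genes among GLPG0187 cells and 11% of 7095 among vehicle cells. Klf5 was above 0 in 1.89% to 3.65% of cells in all bins of both libraries, with overlapping intervals and no order along Myh11.

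Other quantities moved along the same ranking. The summed immediate early list of 14 genes had means of 69.1 in the lowest and 46.1 in the highest bin of GLPG0187 cells, and 68.5 and 36.3 in vehicle cells. Genes detected per cell went from a median of 3758 to 4258 and from 3855 to 4289. When the cells of these bins were divided at the median of the immediate early sum over all SMC-like cells of the library, Klf4 was lower in the highest than in the lowest Myh11 bin on both sides, 0.324 against 0.934 below the median and 1.28 against 4.41 above it in GLPG0187 cells. In vehicle cells the same means were 0.372 against 1.60 and 1.06 against 5.39. Within cluster 0 alone the log2 ratios were 0.68 and 0.83 for Myocd, -0.86 and -1.03 for Klf2, and -0.87 and -1.43 for Klf4, all past 1.5-fold and all smaller in size than over both clusters. The background there was 9.75% and 8.71% of genes at least 1.5-fold higher and 1.96% and 3.29% at least 1.5-fold lower in the highest bin.

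**Figure D2:**
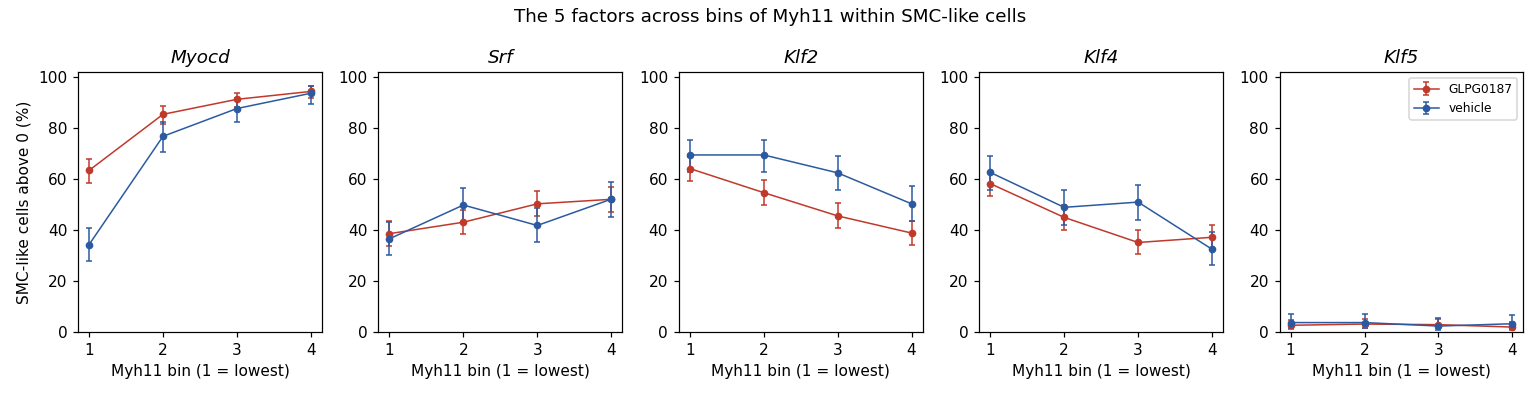
Share of SMC-like cells above 0 (y axis, percent) for each factor across 4 bins of Myh11, from lowest to highest (x axis), in the GLPG0187 (red) and vehicle (blue) libraries, with exact 95% intervals. Myocd climbs to 94.3% and 93.6% in the highest bin, Klf2 and Klf4 are less frequent there than in the lowest bin, and Klf5 stays under 4% in every bin.

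A sub-cluster of SMC-like cells was called modulated by high values of 12 modulation genes and by Myh11 below the other SMC-like cells. The sub-cluster so called, with 11 of the 12 genes high, held 105 GLPG0187 and 191 vehicle cells. These modulated cells made up 23.6% and 67.1% of the lowest Myh11 bin, an overlap that the low Myh11 in that rule favoured. Their Myocd share was 41.0% (31.5 to 51.0) and 41.9% (34.8 to 49.2), while among SMC-like cells outside the sub-cluster it was 86.4% and 81.7%. Klf4 was above 0 in 62.9% (52.9 to 72.1) and 64.4% (57.2 to 71.2) of them, against 42.6% and 44.3% in the others, with means of 3.14 and 3.46 against 1.48 and 1.49. Within the modulated cells the log2 ratios between the libraries were 0.24 for Myocd, -0.13 for Klf4, -0.37 for Klf2 and -0.56 for Srf, none past 1.5-fold. The share of all genes past 1.5-fold in these cells is not given, so these ratios have no background beside them. Srf was above 0 in 29.5% (21.0 to 39.2) of GLPG0187 and 45.0% (37.8 to 52.4) of vehicle modulated cells, lower by 15.5 points among the former (interval of the difference -26.7 to -3.43). That interval covers the counting of cells and not the spread between mice, and no weight is put on the gap. No test of the modulated cells against the rest was made, since their sub-cluster was built from the other genes of these cells.

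Myocd was detected less often in SMC-like cells with Klf4 than in those without it, in 78.5% against 87.5% of GLPG0187 cells and 66.2% against 79.5% of vehicle cells. The Spearman correlation of the 2 genes across cells was -0.08 and -0.19. It was weaker without the modulated cells, at -0.05 and -0.10, and near 0 in cluster 0, at 0.009 and -0.075. Both were above 0 in 34.4% (32.2 to 36.7) of GLPG0187 and 32.2% (29.1 to 35.4) of vehicle SMC-like cells. Cells with Klf4 but without Myocd made up 9.40% (8.05 to 10.9) and 16.5% (14.1 to 19.1), and had the lowest Myh11 means of the 4 combinations, 24.3 and 12.8. Cells with Myocd but without Klf4 had the highest, 57.2 and 50.4. Among modulated cells, Klf4 without Myocd was found in 38.1% (28.8 to 48.1) and 38.2% (31.3 to 45.5). For Klf2 and Klf4 the order was the other way: Klf2 was above 0 in 64.9% of GLPG0187 SMC-like cells with Klf4 and in 39.7% of those without it, and in 73.7% and 52.6% of vehicle cells.

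Between the libraries, Klf2 was the 1 factor of the 4 measured in SMC-like cells that passed 1.5-fold. Its mean was 1.95 in GLPG0187 and 3.58 in vehicle cells, a log2 ratio of -0.88, and its share was 50.7% (48.3 to 53.1) against 62.9% (59.6 to 66.1). The share was lower by 12.1 percentage points in the GLPG0187 library (interval of the difference -16.1 to -8.03). Of 10815 genes measured there, 3.33% were at least 1.5-fold lower and 0.546% at least 1.5-fold higher in GLPG0187 cells. A Klf2 value of 10 or more was found in 4.55% of GLPG0187 and 10.9% of vehicle cells.

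The Klf2 difference was larger in cluster 0, the bigger SMC-like cluster, with means of 1.25 and 2.58 and a log2 ratio of -1.03. There 1.49% of 10150 genes were at least 1.5-fold lower and 0.522% at least 1.5-fold higher. In cluster 3, led by Tnnt2, Timp4 and Pln, the means were 4.25 and 5.27, the log2 ratio was -0.30 and the shares were alike at 70.7% and 70.0% (interval of the difference -6.22 to 7.55). Whether clusters 0 and 3 differed in this was not tested. Over all SMC-like cells the 6 endothelial markers summed to means of 0.198 and 0.251 and the 8 fibroblast markers to 24.7 and 31.5, lower among GLPG0187 cells as Klf2 was. In cluster 0 these sums were 0.177 and 0.164, and 13.5 and 12.7, with 1 of the 6 endothelial markers at 0 in vehicle cells. Their part in the Klf2 difference was not tested. Without the modulated cells the log2 ratio stayed at -0.88. In cells with Xist and no Y-linked value, taken as female, means were 2.40 and 3.27 (log2 -0.43), and in cells with Y-linked values and no Xist 1.505 and 3.62 (log2 -1.27), so the direction was the same in both sexes and only the second passed 1.5-fold. With finer clustering, in which part of the SMC-like cells lost its name, the log2 ratio was -0.54.

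Klf4 in SMC-like cells had means of 1.58 and 1.92, a log2 ratio of -0.28 that did not hold its direction. Without modulated cells the means were 1.48 and 1.49 (log2 -0.01), in cluster 0 they were 0.852 and 1.09 (log2 -0.35) and in cluster 3 they were 3.99 and 3.31 (log2 0.28). No direction is drawn for Klf4 between the libraries in these cells.

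Myocd had a log2 ratio of 0.36 in SMC-like cells, short of 1.5-fold, and its share was higher in the GLPG0187 library by 10.5 percentage points (7.08 to 14.1). Modulated cells made up a smaller part of the GLPG0187 SMC-like cells, and without them the log2 ratio was 0.18 and the difference in share 4.66 points (1.31 to 8.17). In cluster 0 the share differed by 2.09 points (-1.09 to 5.54), a smaller gap. These intervals cover the counting of cells and not the spread between mice. In cluster 3 the means were 1.72 and 0.988 (log2 0.80), where 1.75% of 8266 genes were at least 1.5-fold higher and 2.98% lower, and the shares were 63.3% and 48.6%. Myh11 in the same cells had means of 24.8 and 14.3, with a log2 ratio of 0.80 as well. Srf, with means of 0.603 and 0.561 (log2 0.10), and Klf5 differed by 0.921 points (-3.21 to 5.03) and -0.598 points (-2.16 to 0.779) in share.

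**Figure D3:**
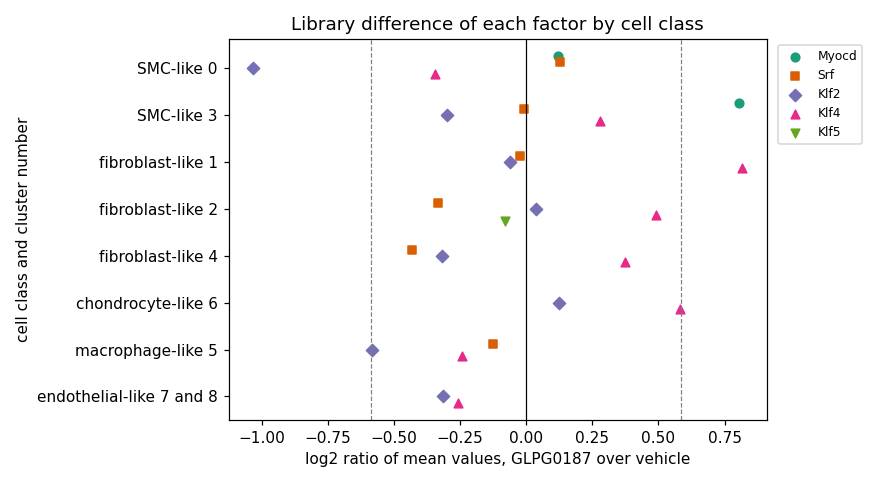
log2 ratio of mean values, GLPG0187 over vehicle (x axis), for each measured factor in each cell class or cluster (y axis), with dashed lines at 1.5-fold and 1 point per factor. Klf2 in SMC-like cluster 0 lies at -1.03, Myocd in cluster 3 at 0.80 and Klf4 in fibroblast-like cluster 1 at 0.82, and points have no error bar because each group is 1 library.

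Klf2 and Klf4 values were also set beside those of the immediate early genes, such as Fos and Egr1, which respond within minutes to growth factors and stress. In SMC-like cells the summed list had means of 56.6 and 51.0. Cells were cut into 4 bins of this sum with the same limits in both libraries. From the lowest to the highest bin Klf2 means were 0.737, 1.10, 1.58 and 4.19 in GLPG0187 cells and 2.63, 2.27, 3.13 and 7.02 in vehicle cells. Klf2 was thus higher in the vehicle library in every bin, by 3.56-fold, 2.06-fold, 1.99-fold and 1.68-fold. In cluster 0 the same held, by 2.81-fold, 1.94-fold, 2.40-fold and 1.70-fold.

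Single immediate early genes did not all move as Klf2 did. Of 14 measured in SMC-like cells, Fos was at least 1.5-fold higher in the GLPG0187 library (means 20.1 and 12.6) and Egr2, Egr3 and Arc were at least 1.5-fold lower, while Junb was level at 6.04 and 6.04. The median log2 ratio of the list was -0.13, against -0.05 for all measured genes. Without modulated cells the log2 ratios of Egr2 and Egr3 were -0.38 and 0.17. In cluster 0, of 13 measured, Fos and Fosb were at least 1.5-fold higher and Jun and Arc at least 1.5-fold lower. All genes measured there gave 0.522% higher and 1.49% lower. Fos had the highest level of the list and so weighs most in the sum. Over all SMC-like cells, Klf4 means along the 4 bins went from 0.409 to 3.93 in GLPG0187 and from 0.505 to 4.99 in vehicle cells. The libraries differed by 1.24-fold to 1.55-fold, vehicle higher in each bin.

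**Figure D4:**
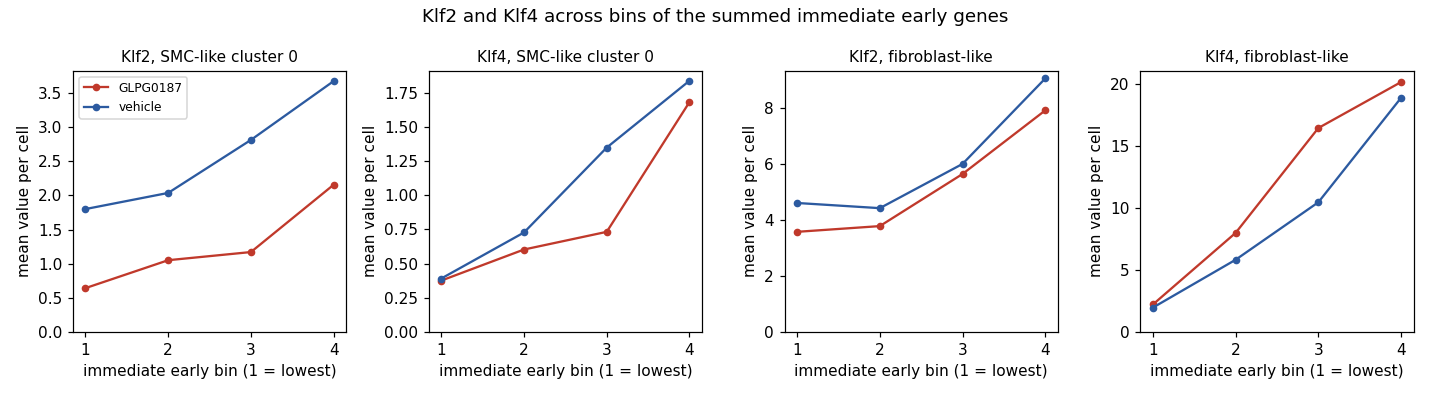
Mean value per cell (y axis) of Klf2 and Klf4 across 4 bins of the summed immediate early genes (x axis, 1 lowest) in SMC-like cluster 0 and in fibroblast-like cells, GLPG0187 in red and vehicle in blue. Both factors are highest in the top bin, and Klf2 in cluster 0 is higher in the vehicle library in each of the 4 bins, by 1.70-fold to 2.81-fold.

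In fibroblast-like cells it was Klf4 that passed 1.5-fold, with higher values in the GLPG0187 library. Its means were 12.6 and 8.26 (log2 0.61) and its shares 88.9% (87.4 to 90.2) and 81.7% (79.7 to 83.6), a difference of 7.12 points (4.72 to 9.55). Here 1.98% of 11546 genes were at least 1.5-fold higher and 0.961% lower. All 3 fibroblast-like clusters had the same direction, with log2 ratios of 0.82, 0.49 and 0.37 in clusters 1, 2 and 4, and so had Xist-only cells (0.75) and Y-only cells (0.53). Klf2 in the same cells was level, with means of 5.44 and 5.72 (log2 -0.07).

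The immediate early sum was also higher in GLPG0187 fibroblast-like cells, with means of 126 and 99.2. Split into 4 bins of that sum, Klf4 was higher in the GLPG0187 library in each bin, but by 1.13-fold and 1.07-fold in the lowest and highest bins against 1.37-fold and 1.57-fold in the bins between. Within single clusters the direction turned in 2 bins, the lowest of cluster 2 (2.43 and 2.61) and the highest of cluster 4 (26.7 and 32.3). The difference in Klf4 over all 3 clusters was smaller within 3 of the 4 bins than without bins, 1.53-fold.

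In the endothelial-like, macrophage-like and chondrocyte-like classes no measured factor passed 1.5-fold between the libraries when each class was taken whole. All genes measured gave 5.02%, 6.34% and 2.73% at least 1.5-fold higher and 3.8%, 3.16% and 1.46% lower in these classes. Endothelial-like cells had Klf2 means of 19.96 and 24.5 (log2 -0.31) and Klf4 means of 10.6 and 12.5 (log2 -0.26). Their cluster 7 also held lymphatic markers. When finer clustering separated the 2 kinds, Klf2 was at 19.4 and 31.8 in blood endothelial-like cells (75 and 51 cells) and at 20.5 and 17.5 in lymphatic endothelial-like cells (85 and 53 cells). Klf4 was at 9.09 and 15.5 in the former and 11.95 and 9.74 in the latter. In blood endothelial-like cells both factors were thus over 1.5-fold lower among GLPG0187 cells (log2 -0.75 and -0.80), where 7.49% of genes were as much lower and 6.77% higher. In lymphatic endothelial-like cells they ran the other way, short of 1.5-fold (log2 0.22 and 0.29), against 4.97% of genes higher and 4.27% lower. Of 11 immediate early genes measured over all endothelial-like cells, 6 were at least 1.5-fold lower among GLPG0187 cells, and their part in the Klf2 and Klf4 values was not tested. Macrophage-like cells had Klf2 means of 1.57 and 2.31 (log2 -0.58), just under 1.5-fold. Chondrocyte-like cells had Klf4 means of 7.67 and 5.15 (log2 0.58), also just under it, and Klf2 means of 6.49 and 5.98.

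The lists of genes around these factors were read in SMC-like cells against the background of 0.546% of genes higher and 3.33% lower. Of 15 contractile SRF targets 0 passed 1.5-fold in either direction, with a median log2 ratio of 0.31, and Acta2, smooth muscle actin, had means of 297 and 244. In cluster 0 their median was 0.10. Of 8 SRF cofactors, 1 was lower in the GLPG0187 library, Fhl2, a LIM-domain protein (log2 -0.63, but -0.07 in cluster 0). Among 9 cytoskeletal SRF targets 1 was lower, Ctgf, a matricellular growth factor, with means of 25.2 and 42.9 (log2 -0.76, and -0.75 in cluster 0). These counts of 0 and 1 are too small to set apart from the background. The most abundant SRF cofactor, Csrp2, was at log2 0.22, and at -0.002 in cluster 0. The most abundant cytoskeletal target, Actb, was at log2 0.24, and at 0.15 in cluster 0. None of the 12 other Kruppel-like and Sp factors measured and none of the 6 genes of the MEF2 and ERK5 arm passed 1.5-fold. Klf9, the most abundant of the 12, had means of 3.63 and 3.78 (log2 -0.06). Klf6, another Kruppel-like factor, had means of 2.95 and 3.66 (log2 -0.31), the largest drop among the 12. Mef2c, a MEF2 factor, had means of 4.08 and 4.20.

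Of 9 measured repressors of the contractile programme, 1 was lower in the GLPG0187 library, Tcf21 (log2 -1.26, but 0.22 in cluster 0). Of 4 genes linked to KLF5, 1 was, Ccnd1 (log2 -0.80, not measured in cluster 0), again against 3.33% of all genes. The 12 modulation genes that were also used to call the modulated sub-cluster had 8 lower, among them Spp1, Timp1, Cd34 and Vcam1. They had 1 higher, Ly6a, and a median log2 ratio of -0.83. Fn1 and Dcn, the most abundant of them, were lower but short of 1.5-fold (log2 -0.31 and -0.46). In cluster 0 the same list had 3 lower and 2 higher, with a median of -0.20, against 1.49% of all genes lower and 0.522% higher. Along Myh11, 13 of 14 contractile targets were at least 1.5-fold higher in the highest bin of the GLPG0187 library and 14 of 14 in the vehicle library, the direction that Myocd had, against 11.6% and 13.1% of all genes. Of 13 immediate early genes 9 were at least 1.5-fold lower there in each library, the direction of Klf2 and Klf4, against 6.34% and 11% of all genes, and 1, Atf3, was at least 1.5-fold higher among vehicle cells. In endothelial-like cells, 5 targets of endothelial Kruppel-like factors were measured. Thbd, thrombomodulin, was higher in the GLPG0187 library (log2 0.61) and Aqp1 and Edn1 were lower (log2 -0.59 and -1.05). Of all genes measured in that class, 5.02% were at least 1.5-fold higher and 3.8% lower. The list does not say whether a factor raises or lowers each target. These values pool blood and lymphatic endothelial-like cells, in which Klf2 ran in opposite directions (log2 -0.75 and 0.22).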

How the data were processed

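Single-cell RNA was measured with 10x Genomics 3' version 3 chemistry, per the labels' protocols, in 1 library per group. As deposited, each cell's values are integers with nearly even totals (coefficients of variation 5.69% and 5.81%), so they were treated as a depth-corrected score and not as UMI counts, and no count model or p-value was used. Cell Ranger, Seurat and mm10 are named per the submitters' processing notes, with no version or role. The sources used here do not state how depth was corrected. Groups follow the treatment label.

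Doublets were called by Scrublet in scanpy 1.11.5 (48 and 16 cells removed, 1.09% and 0.540%). Values were scaled to 10000 per cell and logged, 2000 variable genes without the 5 factors, mitochondrial, ribosomal and sex-linked genes were scaled over both libraries, and 30 components and 20 neighbours were clustered with leidenalg 0.10.2 at resolution 0.5. Clusters were named when at least 3 and 75% of a class's markers were detected in 25% of cells and lay over 3 times the median of clusters. Names are rebuilt here and are not the authors'. Log2 ratios compare sums divided by class totals after adding 1, and were tested on simulated data.

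The text names the 5 factors, some of the most abundant genes of the lists, some of those past 1.5-fold, and the 3 genes with the most similar class profiles. The factors and gene lists were chosen with earlier results of these data known, and the naming thresholds were set after the data were seen. Alternatives changed clustering, scaling, doublets, sex, bins and added values.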

Additional observations from a re-analysis of the deposited data

Results flagged for a closer look

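Klf2 had a log2 ratio (GLPG0187 over vehicle) of 0.13 in chondrocyte-like cells and -0.88 in SMC-like cells, opposite directions whose difference was not tested. The median of all genes measured in chondrocyte-like cells was 0.07. By share, Klf2 was not opposite there, with 80.6% of GLPG0187 and 84.2% of vehicle chondrocyte-like cells (difference -3.64 points, interval -11.9 to 4.54). Klf4 had a log2 ratio of 0.61 in fibroblast-like cells and -0.28 in SMC-like cells, again opposite and not tested, and the SMC-like value did not hold its direction. With finer clustering, Klf2 had log2 ratios of -0.75 in blood and 0.22 in lymphatic endothelial-like cells, and Klf4 of -0.80 and 0.29, opposite as well and not tested. Each side rests on 1 library per group.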

How the results depend on the processing

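Of 225 values recomputed under an alternative, 149 moved by less than the width of the binomial interval of the share, a tolerance set after the data were seen, 76 moved by more, and 216 kept their direction. The settings by cluster and by the immediate early sum were chosen after seeing the data.

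Between the libraries in SMC-like cells, the log2 ratio of Myocd was 0.15 at resolution 0.3, 0.25 at resolution 1.0, 0.18 without modulated sub-clusters, 0.50 in Xist-only cells, 0.12 in cluster 0 and 0.80 in cluster 3. That of Srf was -0.18 in Xist-only cells. Klf2 was at -0.54 at resolution 1.0, -0.72 with cells gated by markers, -0.43 in Xist-only cells, -1.27 in Y-only cells, -1.03 in cluster 0, -0.30 in cluster 3 and -1.42 in cells under the median immediate early sum. Klf4 was at 0.17 at resolution 0.3, 0.30 at resolution 1.0, 0.01 with gated cells, -0.01 without modulated sub-clusters, 0.06 in Xist-only cells, -0.53 in Y-only cells, 0.28 in cluster 3 and -0.57 under the median immediate early sum. At resolution 1.0 some SMC-like clusters lost their name, so fewer cells entered. For the other moved values the cause was not tested. Median-of-ratios scaling shifted all log2 ratios by 0.05.

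All 120 recomputed values along Myh11 kept their direction. In the GLPG0187 library the log2 ratio of the highest over the lowest bin of Myocd was 0.91 with 3 bins, 2.13 with 10 bins, 0.32 with Acta2, Tagln and Cnn1 in place of Myh11, 0.97 in cells of middle gene number, 0.85 without modulated sub-clusters, 0.98 at resolution 1.0, 1.67 with gated cells, 0.91 in Xist-only cells and 0.68 in cluster 0. In the vehicle library these were 1.81, 3.21, 1.62, 1.60, 1.17, 1.34, 2.83, 1.63 and 0.83, and 2.56 in Y-only cells. Klf2 in the GLPG0187 library was at -2.36 with 10 bins, -2.05 at resolution 1.0, -1.44 in Y-only cells and -0.86 in cluster 0, and in the vehicle library at -2.23 with 10 bins, -1.82 at resolution 1.0, -1.0 under the median immediate early sum and -1.03 in cluster 0. Klf4 in the GLPG0187 library was at -2.53 with 10 bins, -2.19 with the 3 other contractile genes, -2.66 with gated cells, -3.00 in Xist-only cells, -1.36 in Y-only cells, -1.50 under the median immediate early sum and -0.87 in cluster 0. In the vehicle library Klf4 was at -3.21 with 10 bins, -1.92 in cells of middle gene number, -2.09 without modulated sub-clusters, -1.82 at resolution 1.0, -1.96 in Xist-only cells, -1.88 under the median immediate early sum and -1.43 in cluster 0.

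The log2 ratio of the share in SMC-like over other cells, taken at values of 2 or more, was 5.67 for Myocd, 1.89 for Srf, -1.09 for Klf2, -1.53 for Klf4 and -1.93 for Klf5 in the GLPG0187 library, and 6.59 for Myocd, -0.51 for Klf2 and -1.17 for Klf4 in the vehicle library. At resolution 1.0 it was 2.10 for Myocd, 0.94 for Srf, -0.51 for Klf2 and -0.68 for Klf4 in the GLPG0187 library and 2.47 for Myocd in the vehicle library.

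No paired analysis was possible because each group holds 1 library, and none was left out. Raw depth is unknown, and Klf5 and the small classes are the least precise.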
